A study of Mus musculus with 8 samples.

Results

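The genes described here are 40 genes of the ATF4 and amino acid stress response, out of 23420 genes listed for the E11.5 cortex and 78298 listed for the E12.5 cortex. They were chosen as known or probable targets and partners of the transcription factor ATF4, after the E12.5 difference between genotypes had been seen. That difference, most visible in Chac1, Asns and Slc7a3, led to the choice, so the E12.5 values of these genes are given as a description, and no p-value is given for them. The E11.5 cortices are other embryos, but earlier E11.5 results were also known when the genes were chosen. All 40 genes were found in both count tables, and all 40 passed the filter on low counts at both stages.

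RNA was sequenced from whole cortices of mouse embryos at E11.5 and E12.5, with 2 Mboat7+/- and 2 Mboat7-/- embryos at each stage and 8 cortices in all. Mboat7 encodes LPLAT11, an enzyme that attaches arachidonic acid to the phospholipid phosphatidylinositol. The knockout is global, so every cell of a Mboat7-/- embryo carries only the knockout allele, and the Mboat7+/- controls carry 1 intact copy; no wild-type cortex was analysed here. Embryos were taken regardless of sex, and the labels give each replicate number as a batch without saying what was shared. The stages were sequenced by different providers, so stage and provider cannot be told apart, and levels are compared only within a stage.

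When a cell runs short of an amino acid, or when its endoplasmic reticulum or mitochondria are disturbed, kinases phosphorylate the translation factor eIF2, most protein synthesis slows, and the mRNA of ATF4 is translated more. ATF4 then pairs with C/EBP proteins and other partners at a composite DNA element and switches on genes for amino acid uptake, amino acid and one-carbon synthesis, tRNA charging and the stress response itself. Growing tissues such as the embryonic cortex, whose radial glial cells divide fast, need these amino acids, and several of the genes are active without stress.

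The element is shown for the members of largest E12.5 difference without overlap that had it upstream of their start, and for a pair, Gars and Pck2, that had it and hardly differed. The sequences are from RefSeq on the assembly GRCm38.p6, each written 5′ to 3′ on the strand of the gene and ending at or before its start. Capitals mark the composite element, searched as TGATGNAA and its reverse complement TTNCATCA. Chac1 lies on the plus strand at chr2:119351023-119351082, Asns on the minus strand at chr6:7693210-7693258, Atf3 on the minus strand at chr1:191183410-191183469, Vldlr on the plus strand at chr19:27216794-27216853, Slc7a11 on the minus strand at chr3:50443646-50443705, Gars on the plus strand at chr6:55037945-55038000 and Pck2 on the plus strand at chr14:55540137-55540196.
Chac1: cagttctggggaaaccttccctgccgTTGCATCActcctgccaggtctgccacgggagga
Asns: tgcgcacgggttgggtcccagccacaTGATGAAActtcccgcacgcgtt
Atf3: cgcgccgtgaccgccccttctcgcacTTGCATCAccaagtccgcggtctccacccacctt
Vldlr: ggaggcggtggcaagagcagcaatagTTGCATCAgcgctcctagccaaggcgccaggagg
Slc7a11: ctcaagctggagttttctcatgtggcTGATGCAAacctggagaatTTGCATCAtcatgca
Gars: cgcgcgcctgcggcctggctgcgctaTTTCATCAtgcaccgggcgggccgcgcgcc
Pck2: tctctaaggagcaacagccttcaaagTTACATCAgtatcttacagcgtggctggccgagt

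The E11.5 cortices had between 21843330 and 28189771 counts in total and the E12.5 cortices between 20799311 and 23330432. Levels are given as normalized CPM, counts scaled to a common library size, and the floor of 3 counts lies between 0.106 and 0.144 CPM. The targeted gene Mboat7 was no lower in labelled Mboat7-/- cortices at E11.5, where it had 700 and 876 counts in Mboat7+/- and 1103 and 860 in labelled Mboat7-/- cortices. On normalized library sizes these were 32.3 and 33.1 against 39.0 and 34.8 CPM, higher without overlap (log2 fold change 0.17, standard error 0.11, adjusted p = 0.527, edgeR). At E12.5 the counts were 739 and 782 against 730 and 729, or 35.5 and 36.2 against 31.7 and 32.2 CPM, lower without overlap (log2 fold change -0.17, standard error 0.10, adjusted p = 0.958, edgeR). Counts over the whole gene do not show which exons the allele lacks, so the direction of every difference given here rests on the labels. Genes of cortical progenitors and neurons, Emx1 and Pax6 among them, were present in every cortex, with a summed level between 4889 and 5086 CPM at E12.5. At E11.5 the sum was 3314 CPM in the replicate 1 cortex labelled Mboat7-/- and between 4250 and 4579 CPM in the other 3. The female transcript Xist was found in E11.5 Mboat7+/- replicate 1 (17875 counts), whereas each other cortex had at most 2 counts of it. In whole cortices, fewer cells of a type and less RNA per cell cannot be told apart.

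The 40 genes span a wide range of levels. Per kilobase of the longest annotated transcript, Psat1 was the highest at E12.5 with a mean of 152.7 CPM, followed by Phgdh with 124.4, Gars with 96.6 and Atf4 with 66.7. The lowest were Nupr1 with 0.281, Slc7a3 with 0.591 and Atf3 with 0.864 CPM per kilobase. The same enzymes led at E11.5, where Phgdh stood at 120.4, Atf4 at 105.9 and Gars at 90.2 CPM per kilobase. The first enzymes of serine synthesis, several tRNA ligases and Atf4 mRNA itself were thus among the most abundant members, while Psph, the last enzyme of serine synthesis, stood at 9.28 CPM per kilobase at E12.5 and Nupr1, Atf3, Slc7a3 and other genes known for their induction were low.

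At E12.5, 29 of the 40 genes had a mean above and 11 a mean below that of the controls in labelled Mboat7-/- cortices, and the median log2 fold change was 0.17, against 0.00499 over all 16326 genes tested. Both labelled Mboat7-/- cortices lay above both Mboat7+/- cortices in 21 members (52.5%), against 16.9% of all genes, and below in 3 members (7.5%), Trib3, Pck2 and Wars, against 15.2%. These shares describe the contrast the members were chosen by, and nothing is read from them. None of the 40 passed an FDR under 0.05 together with a change of 2-fold or more in edgeR, against 0.0184% of all genes (3 genes), and DESeq2 called none either, where it called 5 genes in all. Within batch 1 the median log2 ratio of the members was 0.136, with 35 of 40 higher, and within batch 2 it was 0.111, with 24 of 40 higher. The label of the second E12.5 Mboat7+/- cortex names the data of the first, and its counts were matched by replicate number. Which cortices form a batch at E12.5 is therefore uncertain.

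**Figure D1:**
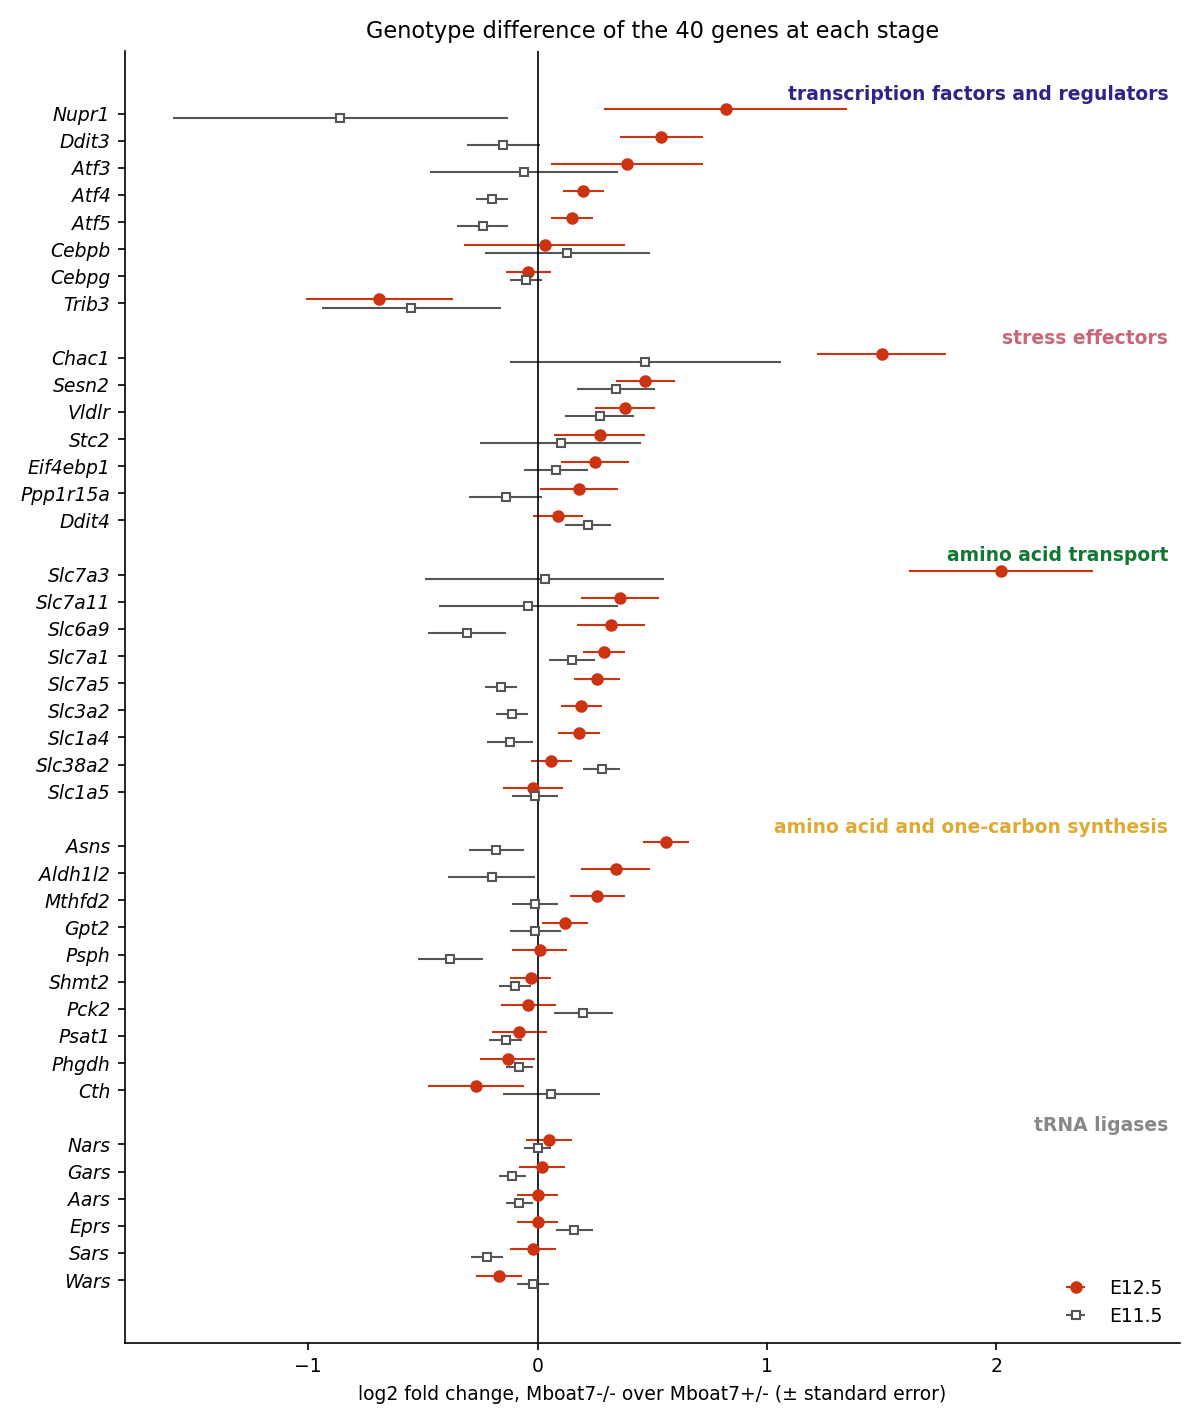
Log2 fold change (horizontal axis) of labelled Mboat7-/- over Mboat7+/- cortices for the 40 genes, in 5 groups by role, as filled circles at E12.5 and open squares at E11.5, with bars for the standard error (2 cortices per genotype at each stage). Slc7a3 and Chac1 lie far to the right at E12.5, with values of 2.02 and 1.50, and the 6 tRNA ligases sit between -0.17 and 0.05.

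By role, the stress effectors and the transporters had the highest medians. Shares of all genes without overlap are those just given, 16.9% higher and 15.2% lower. All 7 stress effectors were higher at E12.5 (median log2 fold change 0.27), 5 of them without overlap. Of the 9 transport genes 8 were higher (median 0.26), all 8 without overlap. Of the 8 transcription factors and regulators 6 were higher (median 0.18), 4 of them without overlap. The 10 genes of amino acid and one-carbon synthesis were split evenly, 5 higher and 5 lower, with a median of -0.01 and 4 of them higher without overlap. The 6 tRNA ligases were split as well, 3 higher and 3 lower, with a median of 0.000241 and none higher without overlap. The difference at E12.5 was therefore not shared by the whole set, and differences between these groups were not tested.

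**Figure D2:**
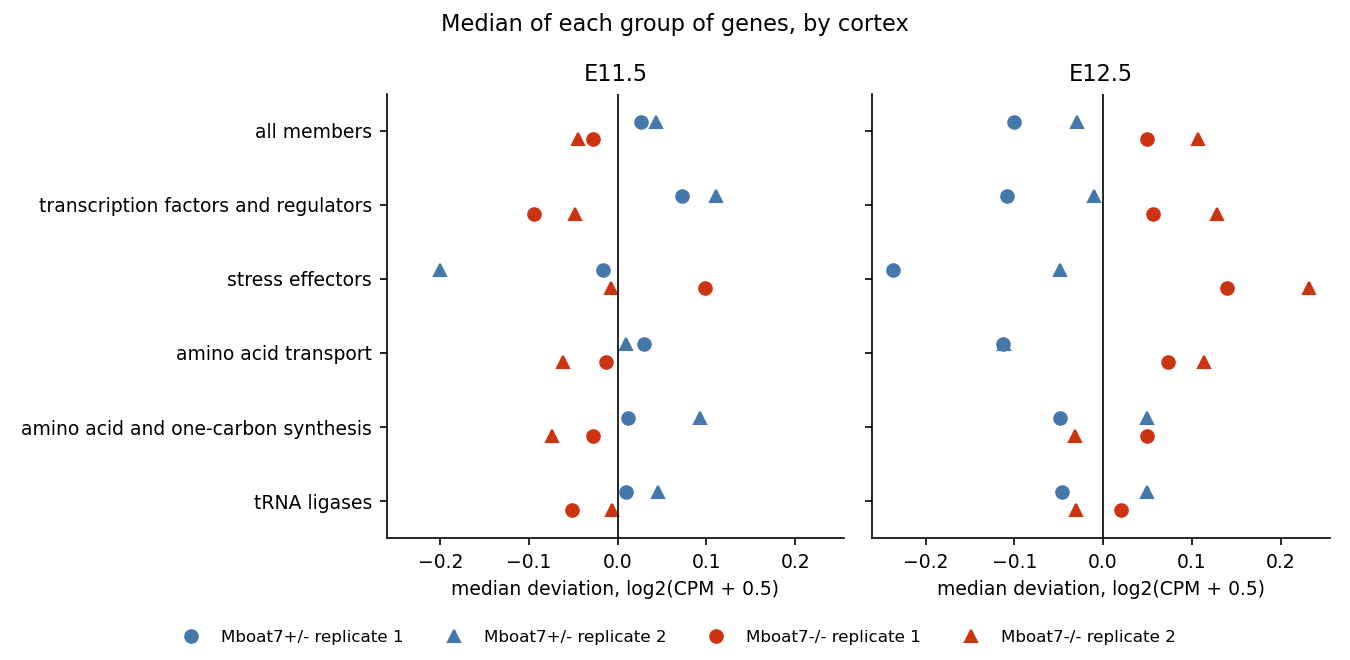
Median over the genes of each group of the deviation from the mean of the 4 cortices of a stage, in log2(CPM + 0.5) (horizontal axis), for the 40 genes and for the 5 groups by role, with blue for Mboat7+/- and red for labelled Mboat7-/- cortices, circles for replicate 1 and triangles for replicate 2. At E12.5 the transport genes stand at -0.113 and -0.112 in Mboat7+/- cortices and at 0.073 and 0.114 in labelled Mboat7-/- cortices, while the tRNA ligases of the genotypes interleave.

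Atf4 is the activator of the response, and its activity is set largely by translation of its mRNA, which these counts do not show. At E12.5 its level (ENSMUSG00000042406) was 121.8 and 128.4 CPM in the Mboat7+/- cortices and 146.4 and 141.9 CPM in labelled Mboat7-/- cortices. Both labelled Mboat7-/- cortices were above both controls, by a log2 fold change of 0.20 (standard error 0.09). Atf5, a related factor that is also controlled by translation, was at 52.9 and 52.6 CPM against 56.8 and 60.7 CPM (log2 fold change 0.15, standard error 0.09). Ddit3 encodes CHOP, a factor induced by ATF4 under lasting stress. It stood at 8.31 and 6.81 CPM in Mboat7+/- cortices and at 11.1 and 10.9 CPM in labelled Mboat7-/- cortices, again without overlap (log2 fold change 0.54, standard error 0.18). Atf3, a stress-induced factor of the same family, was at 1.20 and 1.76 CPM against 1.95 and 1.94 CPM (log2 fold change 0.39, standard error 0.33), a gap of few counts, from 38 to 44 between the nearest cortices. Without 1 cortex the Atf3 value lay between 0.15 (without Mboat7+/- replicate 1) and 0.69 (without Mboat7+/- replicate 2).

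Trib3, a pseudokinase that ATF4 and CHOP induce and that restrains them, went the other way at E12.5. Its level was 2.31 and 2.92 CPM in Mboat7+/- cortices and 1.91 and 1.33 CPM in labelled Mboat7-/- cortices, with a log2 fold change of -0.69 (standard error 0.32), or -0.45 without labelled Mboat7-/- replicate 2. Nupr1, a small stress-induced nuclear protein, rested on between 9 and 27 counts, and its genotypes overlapped (log2 fold change 0.82, standard error 0.53). The C/EBP partners Cebpg and Cebpb also overlapped, with log2 fold changes of -0.04 and 0.03. Cebpg was among the better measured factors, at 110.2, 115.9, 117.9 and 101.8 CPM.

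Chac1 encodes an enzyme that breaks down glutathione and is among the most responsive targets of ATF4. In E12.5 Mboat7+/- cortices Chac1 (ENSMUSG00000027313) had 28 and 35 counts, or 1.35 and 1.62 CPM, and in labelled Mboat7-/- cortices 90 and 102 counts, or 3.91 and 4.51 CPM. The means were 1.48 ± 0.195 and 4.21 ± 0.424 CPM (SD, n = 2), a 2.83-fold ratio, with a log2 fold change of 1.50 (standard error 0.28). Within the batches as numbered, which are uncertain at E12.5, the ratio was 1.25 and 1.24 in log2(CPM + 0.5). Sesn2 encodes a leucine sensor that restrains the growth kinase complex mTORC1. It was at 12.7 and 14.1 CPM in Mboat7+/- cortices and at 18.8 and 18.5 CPM in labelled Mboat7-/- cortices (log2 fold change 0.47, standard error 0.13). Vldlr, a receptor for lipoproteins and for the cortical guidance protein reelin, was at 25.1 and 19.9 CPM against 28.2 and 30.3 CPM (log2 fold change 0.38, standard error 0.13), or 0.22 without Mboat7+/- replicate 2.

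Eif4ebp1, a repressor of cap-dependent translation, and Stc2, a secreted glycoprotein, did not overlap either, with log2 fold changes of 0.25 (standard error 0.15) and 0.27 (standard error 0.20). The remaining effectors overlapped between genotypes. Ppp1r15a encodes GADD34, which brings the phosphatase back to eIF2 and ends the response, and differed by 0.18 on the log2 scale (standard error 0.17). Ddit4 encodes a further inhibitor of mTORC1 and had 0.09 (standard error 0.11). Of these feedback genes, Trib3 was thus lower and Ppp1r15a stayed within the spread between cortices.

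**Figure D3:**
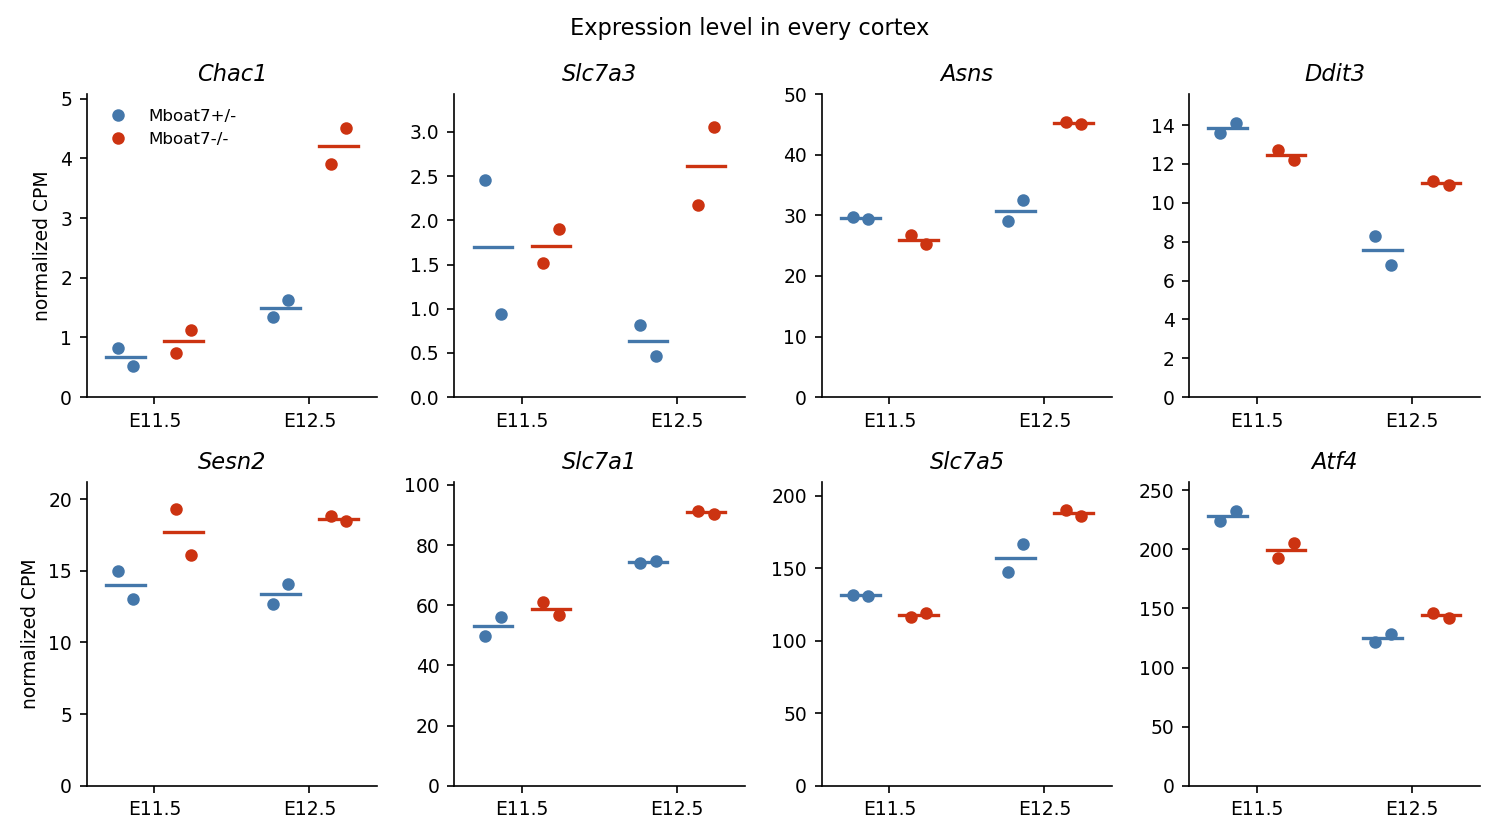
Normalized CPM (vertical axis, from 0) of 8 genes in every cortex at E11.5 and E12.5, blue for Mboat7+/- and red for labelled Mboat7-/-, each point 1 cortex and each line the mean of 2. At E12.5 the red points lie above the blue ones in all 8 panels, while at E11.5 the red points lie below the blue ones for Asns, Ddit3, Slc7a5 and Atf4; the stages were sequenced and normalized separately, so levels are to be read within a stage.

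Among the transporters, Slc7a3 had the largest log2 fold change of all 40 genes. It encodes a carrier of arginine, lysine and other cationic amino acids. In E12.5 Mboat7+/- cortices Slc7a3 (ENSMUSG00000031297) had 17 and 10 counts, or 0.817 and 0.463 CPM, and in labelled Mboat7-/- cortices 50 and 69 counts, or 2.17 and 3.05 CPM. The log2 fold change was 2.02 (standard error 0.40), a 4.06-fold ratio between low levels. Slc7a3 is the only X-linked gene of the 40, and no E12.5 cortex had more than 2 counts of Xist. Slc7a1, the carrier of the same amino acids that most tissues use, was far more abundant and measured more tightly. It was at 73.9 and 74.8 CPM in Mboat7+/- cortices and at 91.4 and 90.3 CPM in labelled Mboat7-/- cortices (log2 fold change 0.29, standard error 0.09).

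Slc7a5 and Slc3a2 form the exchanger that brings in leucine and other large neutral amino acids. Slc7a5 was at 147.5 and 166.8 CPM in E12.5 Mboat7+/- cortices and at 190.3 and 185.8 CPM in labelled Mboat7-/- cortices (log2 fold change 0.26, standard error 0.10), or 0.17 without Mboat7+/- replicate 1. Slc3a2, the shared heavy chain, was at 95.9 and 98.5 CPM against 109.2 and 112.3 CPM (log2 fold change 0.19, standard error 0.09). Both chains thus lay higher without overlap. Slc7a11, another partner of Slc3a2, imports cystine for glutathione synthesis, and was at 9.85 and 8.66 CPM against 10.8 and 13.0 CPM (log2 fold change 0.36, standard error 0.17), or 0.22 without labelled Mboat7-/- replicate 2. Slc6a9, a glycine transporter, was at 12.4 and 12.6 CPM against 14.4 and 16.8 CPM (log2 fold change 0.32, standard error 0.15), or 0.20 without the same cortex. Slc1a4, which exchanges serine and alanine, was at 65.6 and 63.6 CPM against 72.4 and 74.2 CPM (log2 fold change 0.18, standard error 0.09). The neutral amino acid carrier Slc38a2 was hardly shifted (0.06, standard error 0.09), and the glutamine carrier Slc1a5 overlapped (-0.02, standard error 0.13).

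Asns, which makes asparagine and is the classical target of the amino acid response, stood out among the enzymes. Asns (ENSMUSG00000029752) was at 29.0 and 32.5 CPM in E12.5 Mboat7+/- cortices and at 45.4 and 45.1 CPM in labelled Mboat7-/- cortices, 30.7 ± 2.47 against 45.2 ± 0.216 CPM (SD, n = 2). This was a 1.47-fold ratio (log2 fold change 0.56, standard error 0.10), measured from far more counts than Chac1 or Slc7a3. The mitochondrial folate enzymes divided. Aldh1l2 was at 22.1 and 18.3 CPM against 22.5 and 28.7 CPM (log2 fold change 0.34, standard error 0.15) and Mthfd2 differed by 0.26 (standard error 0.12), both without overlap, whereas Shmt2 overlapped (-0.03, standard error 0.09). The Aldh1l2 value was 0.21 without Mboat7+/- replicate 2 and 0.16 without labelled Mboat7-/- replicate 2.

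Serine synthesis did not share the difference. Phgdh, Psat1 and Psph, which carry out its consecutive steps, had E12.5 log2 fold changes of -0.13, -0.08 and 0.01, and their genotypes overlapped. Psat1 lay at 375.4 and 444.7 CPM in Mboat7+/- cortices and at 417.7 and 360.4 CPM in labelled Mboat7-/- cortices. Of the other enzymes, Gpt2, which makes alanine and glutamate interconvertible with their keto acids, was higher without overlap (0.12, standard error 0.10). The mitochondrial PEP carboxykinase Pck2 lay lower by a narrow margin, at 19.0 and 19.8 CPM against 18.8 and 18.8 CPM (-0.04, standard error 0.12). Cth, which makes cysteine, overlapped (-0.27, standard error 0.21).

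The tRNA ligases were abundant and flat at E12.5. Aars, Gars, Sars, Nars and Eprs, which charge the tRNAs of alanine, glycine, serine, asparagine, and glutamate and proline, had log2 fold changes between -0.02 and 0.05 with standard errors near 0.10. Aars, for example, was at 227.9, 243.9, 236.5 and 236.7 CPM. Wars, the tryptophan ligase, was at 140.5 and 147.0 CPM in Mboat7+/- cortices and at 136.0 and 119.2 CPM in labelled Mboat7-/- cortices, lower without overlap (-0.17, standard error 0.10).

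The E11.5 cortices, whose earlier results were also known when the genes were chosen, did not show the same shift. In labelled Mboat7-/- cortices 13 of the 40 genes were above and 27 below the controls, and the median log2 fold change was -0.05 against -0.00572 over all 14935 genes tested. The genotypes did not overlap in 7 members that were higher (17.5%), against 23.1% of all genes, and in 17 that were lower (42.5%), against 23.3%. None of the 40 met both criteria in edgeR here, nor did any other gene (0%). The smallest adjusted p among the members was 0.228. At an unadjusted p under 0.05, edgeR gave 1 member higher, against 7.94% of all genes, and 4 lower, against 5.81%. DESeq2 gave 1 higher, against 6.29% of all genes, and 3 lower, against 4.08%. It called 0 members, and 1 gene in all. It gave no adjusted p for many members, so these could not be called. Among them were Chac1, Slc7a3, Asns, Atf3, Ddit3, Trib3, Sesn2, Vldlr, Slc7a11, Slc6a9, Aldh1l2, Pck2 and Psph. With the replicate number as a block, edgeR gave 3 members higher, against 9.09%, and 5 lower, against 7.90%. The median log2 ratio was -0.056 within batch 1, with 26 of 40 genes lower, and -0.116 within batch 2, with 27 of 40 lower.

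The 5 members past the unadjusted threshold at E11.5 were mostly abundant genes with small differences, and none kept its place after adjustment over all genes. Atf4 was at 223.9 and 232.5 CPM in Mboat7+/- cortices and at 192.8 and 205.8 CPM in labelled Mboat7-/- cortices (log2 fold change -0.20, standard error 0.07, adjusted p = 0.265, edgeR). Sars was at 212.8 and 225.6 CPM against 178.7 and 198.3 CPM (log2 fold change -0.22, standard error 0.07, adjusted p = 0.266, edgeR). Slc7a5 was at 131.9 and 130.7 CPM against 116.2 and 119.0 CPM (log2 fold change -0.16, standard error 0.07, adjusted p = 0.340, edgeR). In these genes both labelled Mboat7-/- cortices were the lower ones.

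Psph, the last enzyme of serine synthesis, was at 20.1 and 20.9 CPM in E11.5 Mboat7+/- cortices and at 16.7 and 14.8 CPM in labelled Mboat7-/- cortices (log2 fold change -0.38, standard error 0.14, adjusted p = 0.305, edgeR). Slc38a2 was the member on the higher side, at 180.5 and 205.8 CPM against 244.7 and 223.4 CPM (log2 fold change 0.28, standard error 0.08, adjusted p = 0.228, edgeR). Without the replicate 2 cortex labelled Mboat7-/-, the adjusted p was 0.0296 for Slc38a2 and 0.0494 for Sars, and Ddit4 also passed an FDR under 0.05, all with changes smaller than 2-fold; in that fit 1180 genes passed an FDR under 0.05, against 0 with all cortices. The Slc38a2 value was 0.13, and that of Atf4 -0.11, once trends with transcript length and GC content were removed, and Sars was at -0.14 without the other labelled Mboat7-/- cortex. Over the other alternatives the adjusted p of Slc38a2 reached 0.751 and that of Sars 0.827.

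Chac1 and Slc7a3 overlapped between genotypes at E11.5, and Asns lay on the lower side. Chac1 was at 0.831 and 0.529 CPM in E11.5 Mboat7+/- cortices and at 0.743 and 1.13 CPM in labelled Mboat7-/- cortices, from between 14 and 28 counts (log2 fold change 0.47, standard error 0.59, adjusted p = 0.765, edgeR), and its value lay between 0.14 and 0.82 without 1 cortex. Slc7a3 was at 2.45 and 0.944 CPM against 1.52 and 1.90 CPM (log2 fold change 0.03, standard error 0.52, adjusted p = 0.988, edgeR). Its highest level was in Mboat7+/- replicate 1, the cortex with Xist counts. With standard errors above 0.5 from 2 cortices per genotype, small differences in either gene were not detectable. Asns was at 29.7 and 29.4 CPM against 26.8 and 25.2 CPM, lower without overlap (log2 fold change -0.18, standard error 0.12, adjusted p = 0.530, edgeR).

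Set side by side, the stages gave opposite directions in part of the genes. In 8 of the 40 genes (20%) the labelled Mboat7-/- cortices lay below both controls at E11.5 and above both at E12.5, a pattern found in 2.63% of the 12947 genes tested at both stages. These were Atf4, Atf5, Ddit3, Slc7a5, Slc3a2, Slc1a4, Slc6a9 and Asns. The E11.5 levels not yet given were, in Mboat7+/- and then in labelled Mboat7-/- cortices, 49.3 and 50.8 against 38.3 and 46.4 CPM for Atf5. For Ddit3 they were 13.6 and 14.1 against 12.7 and 12.2 CPM, and for Slc6a9 23.3 and 17.8 against 17.7 and 15.5 CPM. The nearest Slc6a9 cortices of the genotypes almost met. Slc3a2 was at 113.2 and 114.0 against 108.2 and 101.8 CPM, and Slc1a4 at 45.9 and 51.6 against 44.7 and 44.9 CPM. None of these passed the E11.5 test after adjustment. Their E11.5 values stayed negative under every alternative, but some shrank. Slc6a9 was at -0.10 without Mboat7+/- replicate 1, Slc1a4 at -0.03 without Mboat7+/- replicate 2 and Atf5 at -0.11 without labelled Mboat7-/- replicate 1. With the length and GC trends removed Ddit3 was at -0.05, and the E11.5 median of the 40 genes was -0.016, against -0.0182 over all genes. The share of 2.63% covers all genes, whereas these 40 were chosen by their E12.5 values, so nothing is read from the contrast of the shares.

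Pck2 had the reverse pattern, at 26.6 and 22.5 CPM in E11.5 Mboat7+/- cortices and at 27.6 and 28.8 CPM in labelled Mboat7-/- cortices, and lower at E12.5. Sesn2, Vldlr, Slc7a1 and Slc38a2 were higher without overlap at both stages (10% of the members, against 4.78% of all genes). Sesn2 was at 15.0 and 13.0 CPM against 19.3 and 16.1 CPM at E11.5, and Vldlr at 18.7 and 21.9 CPM against 22.5 and 26.4 CPM. With the length and GC trends removed, the E11.5 Vldlr value went from 0.27 to 0.07. Trib3 alone was lower at both, with 2.49 and 2.30 CPM against 1.34 and 1.94 CPM at E11.5 (log2 fold change -0.55, standard error 0.39). Across the 40 genes the log2 fold changes of the stages had a Pearson r of 0.17, given as a description over genes that share libraries within a stage.

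**Figure D4:**
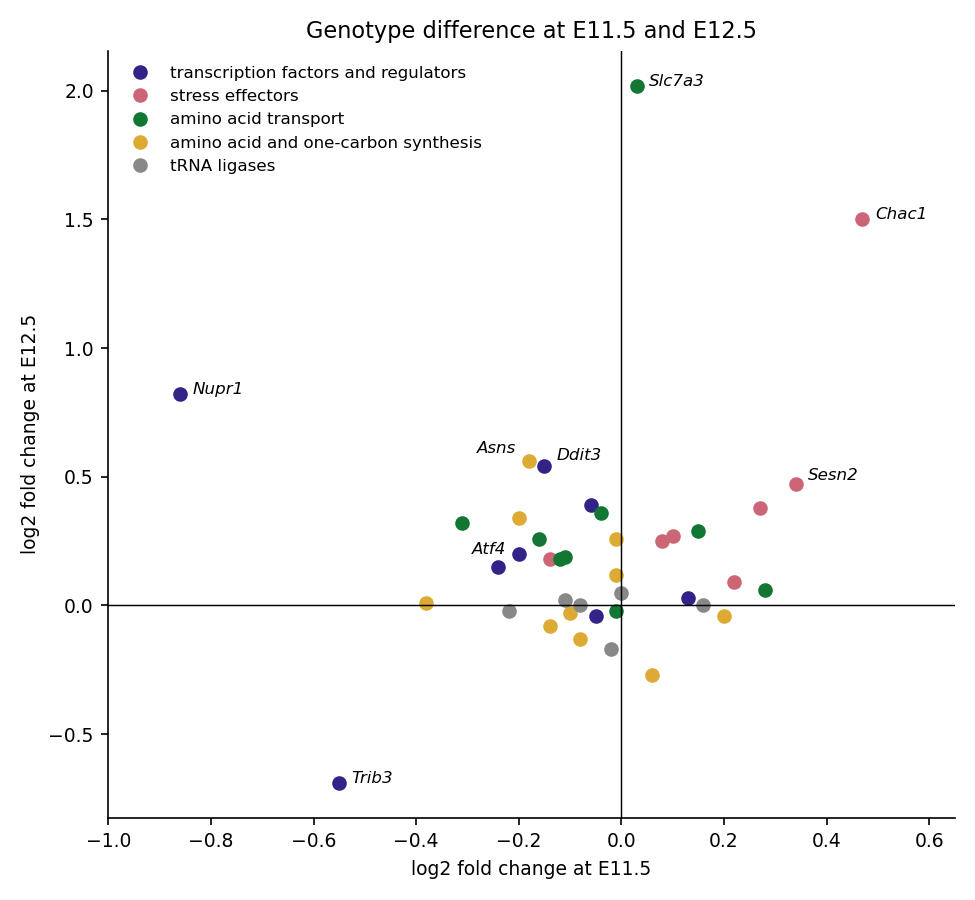
Log2 fold change of labelled Mboat7-/- over Mboat7+/- at E11.5 (horizontal axis) against that at E12.5 (vertical axis) for the 40 genes, coloured by role. Asns, Ddit3 and Atf4 lie at the upper left, lower at E11.5 and higher at E12.5, Sesn2 and Chac1 in the upper right, and Trib3 in the lower left.

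By role at E11.5, the stress effectors were the group most often higher, with a median log2 fold change of 0.22 and 6 of 7 higher, 3 of them without overlap (Ddit4, Sesn2 and Vldlr), against 23.1% of all genes. Transcription factors and regulators had a median of -0.17 with 7 of 8 lower, transport genes -0.04 with 6 of 9 lower, synthesis genes -0.09 with 8 of 10 lower and tRNA ligases -0.05 with 5 of 6 lower. Eprs was the ligase on the higher side, at 193.7 and 218.4 CPM in Mboat7+/- cortices and at 240.8 and 221.2 CPM in labelled Mboat7-/- cortices. Ddit4 was at 76.0 and 66.9 CPM against 90.0 and 76.6 CPM, with the nearest cortices almost level.

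The composite element was found in 11 of the 32 members with a RefSeq window from 250 bases before to 50 bases after the start (34.4%), against 4.51% of 27025 genes. Since the genes were listed as ATF4 targets, that share describes the list. They were Chac1, Nupr1, Asns, Atf3, Vldlr, Slc7a11, Slc1a4, Gars, Aars, Pck2 and Trib3, with 2 matches each in Slc7a11 and Aars. The Slc7a11 pair, printed above, stands in opposite orientation. The median E12.5 log2 fold change was 0.36 in these 11, from -0.69 to 1.50, with 6 higher and 2 lower without overlap (16.9% and 15.2% of all genes). It was 0.12 in the 21 members whose window lacked the element, from -0.13 to 0.54, with 11 higher and none lower without overlap. At E11.5 both medians were -0.08. The difference between these groups was not tested, since the members were chosen by these values. The cAMP response element TGACGTCA was found in 1 of 32 members (3.12%), Ppp1r15a, against 2.03% of genes. The search covers letters only, overlaps between the motifs were not found in any member, and no window was at hand for 8 members, Slc7a3 and Slc7a5 among them.

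**Figure D5:**
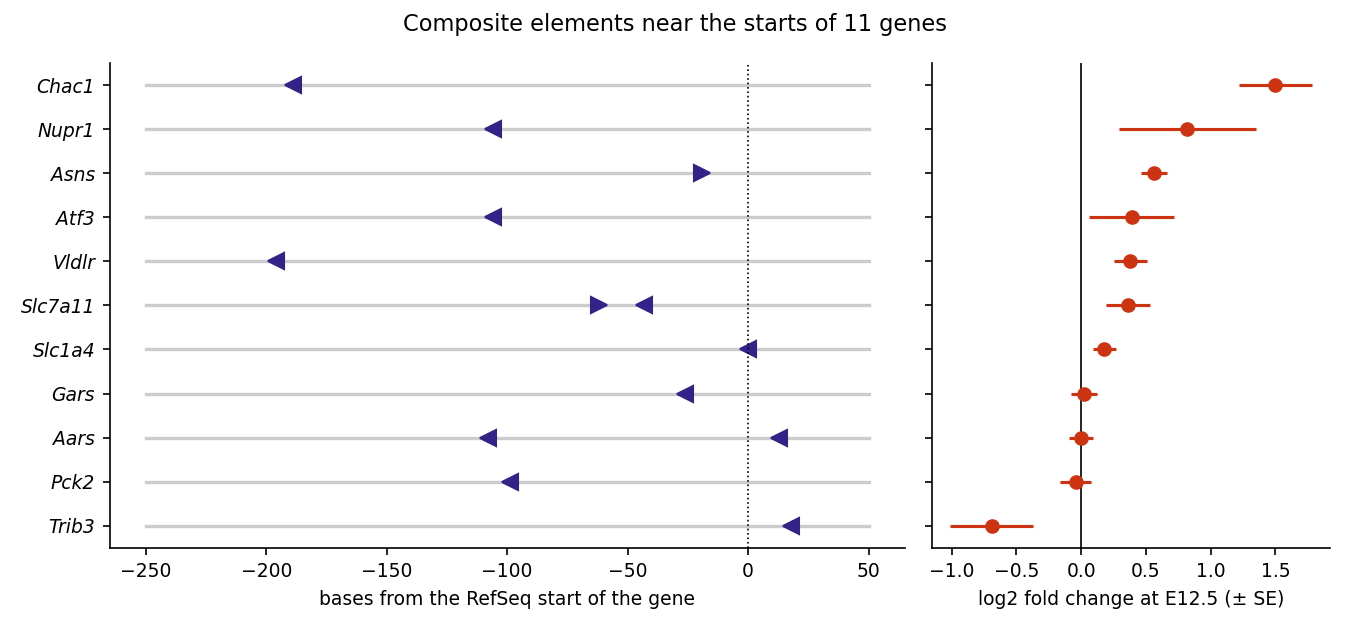
Left, position of the composite element in bases from the RefSeq start in the 11 genes that held it, with arrowheads for its orientation relative to the gene and grey lines for the window searched; right, E12.5 log2 fold change with its standard error. The genes are ordered by that fold change, from Chac1 at 1.50 to Trib3 at -0.69, and in Trib3 the element lies after the start.

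Lists of related genes show how far the E12.5 shift reached. Of 10 further ATF4 targets 8 were tested, and 7 were higher (median log2 fold change 0.08). Jdp2, a bZIP repressor, was at 2.69 and 2.69 CPM against 3.86 and 4.07 CPM, and Pycr1, a proline synthesis enzyme, at 20.2 and 20.7 CPM against 23.9 and 25.4 CPM. The other 2, Gdf15 and Fgf21, secreted stress signals, had at most 1 count in any E12.5 cortex and were not tested. At E11.5 the same 8 genes had a median of 0.13, with 5 higher and 3 lower. Without overlap 3 were higher (37.5%, against 23.1% of all genes) and none lower (against 23.3%). This list, like the others, was drawn up with the E12.5 results known.

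Sensors and neighbours of the pathway had medians on both sides of 0. Of 14 genes of the eIF2 kinases, eIF2, its exchange factor eIF2B and their regulators, 5 were higher at E12.5 (median -0.06), with the largest difference in Eif2ak3, the kinase PERK of the endoplasmic reticulum, at 34.1 and 31.2 CPM against 43.4 and 45.1 CPM (log2 fold change 0.44, standard error 0.10). Of 16 chaperones and degradation factors of the endoplasmic reticulum 6 were higher (median -0.04), with Herpud1 at 0.31 and Sdf2l1 at -0.18. Of 13 amino acid transporters outside the 40 genes 7 were higher (median 0.00257), with Slc7a7 at -0.26 and Slc7a8 at 0.24. None of them was higher or lower without overlap. Of 14 other cytosolic tRNA ligases 6 were higher (median -0.03) and of 17 mitochondrial ones 7 (median -0.02), with Cars at 0.24, Qars at -0.17 and Wars2 at -0.24. Cytosolic folate and glycine cleavage enzymes were lower in 7 of 8 (median -0.17), with Tyms at -0.27 and Shmt1 at -0.24. Of 9 hypoxia response genes tested 4 were higher (median -0.02), with Ankrd37 at 0.27 and Vegfa at 0.25, and of 9 immediate early genes 7 were higher (median 0.13), with Egr1 at 0.38 and Jun at 0.33. Over these lists together, 0 of 108 genes passed an FDR under 0.05 at E12.5 in edgeR or DESeq2. At an unadjusted p under 0.05, edgeR gave 6 of the 108 higher and 1 lower, against 2.76% and 1.35% of all genes. For DESeq2 the counts were 3 and 1 of the 108, against 1.33% and 0.692%. The lists were drawn up with the E12.5 results known, so these counts are descriptions and nothing is read from them. At E11.5 edgeR gave 0 of 109 under that FDR, with 5 higher and 2 lower at an unadjusted p under 0.05, against 7.94% and 5.81% of all genes. DESeq2 gave 1 under that FDR, and 168 genes in all, though it left some of the genes tested without an adjusted p.

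Markers of other cells also differed in median between genotypes, not always without overlap, and their part in the values of the 40 genes was not tested. At E12.5 all 10 blood genes had a lower mean in labelled Mboat7-/- cortices (median log2 fold change -0.54), but only 2 of them without overlap (20%, against 15.2% of all genes). Their summed levels overlapped, with 5342 to 7770 CPM in Mboat7+/- and 3834 to 5438 CPM in labelled Mboat7-/- cortices. Hbb-bh1 and Hba-x, at -1.04 and -0.74, overlapped between genotypes as well. Of 10 microglia genes 9 were higher (median 0.21), with sums of 40.9 to 48.8 against 49.6 to 57.3 CPM and Tyrobp and C1qa at 0.77 and 0.51. Of 10 endothelial genes 8 were higher (median 0.07; 287.1 to 295.9 against 300.4 to 315.4 CPM), with Tek at 0.24 and Emcn at -0.13. Mesenchymal genes overlapped in sum (552.0 to 711.6 against 689.1 to 740.7 CPM), with Dcn at 0.41 and Twist1 at -0.35. Cortical genes had a median of 0.03, with Neurod6 at 0.46 and Nes at -0.32. At E11.5, blood genes were lower as well (median -0.57, 7 of 7 tested), 6 of them without overlap (85.7%, against 23.3% of all genes). Their sums were 5245 to 6958 CPM in Mboat7+/- and 3639 to 3880 CPM in labelled Mboat7-/- cortices. Cortical genes had a median of -0.28, with 7 of 14 lower without overlap (50%), though their sums overlapped. Mesenchymal genes had a median of 0.27, with 7 of 10 higher without overlap (70%, against 23.1%) and sums of 1658 to 1694 against 1937 to 2107 CPM. Of the 51 cell type genes tested at E11.5, edgeR gave 0 under an FDR of 0.05. It gave 8 higher and 12 lower at an unadjusted p under 0.05, against 7.94% and 5.81% of all genes. DESeq2 gave 6 under that FDR, and 168 genes in all. Genes without an adjusted p in DESeq2, Mboat7 and Asns among them, could not pass, so no share is given. At E12.5, of 54, edgeR and DESeq2 gave 0 under that FDR. At an unadjusted p under 0.05, edgeR gave 5 higher and 8 lower, against 2.76% and 1.35% of all genes. DESeq2 gave 1 and 2, against 1.33% and 0.692%. The cell type lists too were drawn up with the E12.5 results known, so their E12.5 counts are descriptions. Defining markers of all these cells were above 0 in every cortex except Hba-a1 and Hba-a2, which were listed at 0 counts throughout E11.5.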

How the data were processed

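The authors deposited raw read counts per gene, without normalization, in 1 table per stage. Libraries were poly(A)-selected and directional. The submitters' processing notes name HISAT2, Subread, mm10 and GRCm39, without saying which served which table, and the strand setting of the counting is not given in the sources used here. The members and lists were chosen with earlier results of these data known. Symbols were matched to E12.5 Ensembl identifiers through a table of gene names.

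The stages were fitted separately by the quasi-likelihood method of edgeR 4.0.16 under R 4.3.3, with TMM scaling, filterByExpr at its minimum count of 10, a prior count of 0.125 and p-values adjusted by Benjamini-Hochberg over all genes tested. CPM were computed on TMM-normalized library sizes, and a standard error is the log2 fold change divided by the root of its F statistic. The study's criterion was used, FDR below 0.05 together with a change of 2-fold or more. Genotypes overlap unless both cortices of one lie above both of the other. No cortices agreed within sampling noise (chi-square per degree of freedom 4.41 to 24.7). Nothing beyond the replicate labels and the stated 2 embryos per genotype describes the replicates, and p-values measure the spread between them.

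The labels repeat the replicate number as a batch, so same-numbered cortices were paired, though what they shared is not stated. At E12.5 the pairing also rests on matching the second Mboat7+/- cortex by its number. Deviations of same-numbered cortices correlated at 0.05 at E11.5 and -0.12 at E12.5. Values in every cortex were given for Mboat7, Atf4, Chac1, Asns and Slc7a3, for members not overlapping at E12.5 whose log2 fold change was 0.3 or more in size, for members at an unadjusted p under 0.05 at E11.5, and for members not overlapping in opposite directions at the 2 stages. For lists, the pair with the largest difference at E12.5 among genes of at least 1 CPM was named, except 1 gene that is not reported here. Other members were named to account for all. The alternatives were RLE normalization, no filter, DESeq2 1.42.0, the replicate block, leaving out each cortex, and, chosen after seeing the data, the crossed pairing and removal of trends over GC content and transcript length. Floors cover counting error only.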

Additional observations from a re-analysis of the deposited data

Results flagged for a closer look

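In 9 genes the cortices labelled Mboat7-/- lay on opposite sides of both controls at the stages. The E12.5 log2 fold change exceeded that of E11.5 by 0.40 for Atf4, 0.39 for Atf5, 0.69 for Ddit3, 0.42 for Slc7a5, 0.30 for Slc3a2, 0.30 for Slc1a4, 0.63 for Slc6a9 and 0.74 for Asns. For Pck2 the difference was -0.24. Several of the E11.5 values shrank under the alternatives, Ddit3 to -0.05, Slc1a4 to -0.03 and Pck2 to 0.09. These differences between stages were not tested, since the genes were chosen by their E12.5 values, and stage and sequencing provider cannot be told apart.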

How the results depend on the processing

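At E12.5 the median of the 40 genes lay between 0.132 and 0.189 when 1 cortex was left out. Members higher without overlap then numbered 22 to 30, where 29% to 39.2% of all genes were, since a lone cortex overlaps less readily. Members past both criteria numbered 0 to 2 without 1 cortex, and 25 to 94 genes in all did so, against 3 with every cortex. They were Slc7a3 without Mboat7+/- replicate 1 (log2 fold change 2.48), Chac1 and Slc7a3 without labelled Mboat7-/- replicate 1 (1.59 and 2.24), and Chac1 without labelled Mboat7-/- replicate 2 (1.39). The crossed pairing called 2 members and 25 genes in all. These members were chosen by the E12.5 values, so the counts are descriptions.

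At E11.5 the count of members at an unadjusted p under 0.05 was 8 with the replicate block, where 17% of all genes passed. It was 2 to 8 without 1 cortex, with 2 of the members and 7.72% of all genes without Mboat7+/- replicate 1, and 8 of the members and 20.6% of all genes without labelled Mboat7-/- replicate 2. The block called no member at either stage, and 30 genes in all at E11.5 and 14 later. Without the filter 41 genes were called at E11.5 and 0 later. The E11.5 median was -0.107 to -0.028 without 1 cortex and -0.016 with the length and GC trend removed, where that of all genes was -0.0182. Members higher without overlap numbered 9 to 12 without 1 cortex, where 35.5% to 38% of all genes were, and 4 with the trend removed, where 17.4% were.

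Small differences changed sign. At E11.5, Slc7a11 was 0.03 with the replicate block, and without 1 cortex it lay between -0.50 and 0.66, Atf3 between -0.47 and 0.29 and Slc7a3 between -0.51 and 0.86. At E12.5, Psph lay between -0.09 and 0.11 and Sars between -0.10 and 0.07 without 1 cortex. With the length and GC trend removed, Atf3 was 0.00 at E11.5, and Psph was 0.00 and Slc38a2 -0.02 at E12.5. The causes were not tested.

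With 2 cortices per group, leaving 1 out assumes that the lone cortex varies like the other group. Chac1, Slc7a3, Nupr1, Atf3 and Trib3 rest on at most 102 counts per cortex. Exons of Cebpb, Slc6a9, Psph, Aldh1l2 and Aars overlap other genes, and Ddit3 has a second identifier at E12.5, so their counts are less certain.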
